A study of Mus musculus with 18 samples.

Results

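E14.5, the fourth of 6 daily stages, was compared with the outer ends of the course, E11.5 and E16.5, to find genes whose level in sorted Wt1GFP++ cells peaked or dipped in mid-course. The comparison used 9 of the 18 arrays, 3 each of E14.5, E11.5 and E16.5 by their titles, and set the E14.5 mean against the average of the means at the outer stages. The cells came from dissociated heart ventricles of mouse embryos of the Wt1GFPKI line, in which the Wt1 locus carries a fluorescent reporter, and were sorted by flow cytometry and labelled Wt1GFP++. The labels give neither the number of reporter copies nor how many embryos went into a sample. No other treatment or allele is labelled, so by their labels the groups differ in embryonic day alone. A gene was a peak where E14.5 was called higher than the average of the ends and its mean lay above both end means, and a dip was the reverse. Of 10829 genes tested, 577 were peaks and 550 were dips.

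The epicardium is the mesothelial sheet over the heart. Its cells express Wt1, keratins and uroplakins, and some leave the sheet by an epithelial-to-mesenchymal transition to form fibroblasts and mural cells of the coronary vessels. Some endothelial cells of the heart can express Wt1 too, and sorted pools can hold RNA of more than 1 cell type. In such pools fewer cells of a type and less RNA per cell cannot be told apart.

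Values are log2 probe intensities of quantile-normalized arrays, on which an unsubtracted level of about 99.2 intensity units remains, so log2 differences of dim genes are compressed. Genes were tested where a probe exceeded a background floor of 6.77 (log2) on at least 3 arrays. Replicate arrays correlated with r from 0.9937 to 0.9952 at E14.5, from 0.9918 to 0.9931 at E11.5 and from 0.9763 to 0.9913 at E16.5. The labels do not tell separate litters apart, so p-values reflect only how far these arrays differ, a spread that may be technical, and the number of arrays limits the precision. Of 18 markers of epicardium and mesothelium 16 were measured, and at E14.5 none of the 16 lay under the floor on all 3 arrays. Their mean log2 level was nevertheless lowest at E14.5, from 7.99 to 8.04, against 8.87 to 9.04 at E11.5 and 8.79 to 9.15 at E16.5. Their summed intensity was 5832 to 6099 at E14.5, 15549 to 16364 at E11.5 and 9749 to 12894 at E16.5. All 18 cardiomyocyte markers were measured, and their mean was 10.58 to 10.77 at E14.5 and 8.62 to 8.98 at E11.5. Of these Ckm alone lay under the floor at E11.5. Their summed intensity was 69705 to 75808 at E14.5, 15349 to 21163 at E11.5 and 19506 to 70557 at E16.5. At E16.5 the mean was 10.83 in replicate 1 but 9.18 and 8.89 in replicates 2 and 3, and at E15.5 it was 11.03 in replicate 1 against 8.86 and 9.18. Replicate 1 of E15.5 and replicate 1 of E16.5 therefore stand apart, and results on muscle genes are given with and without them. As cardiomyocyte markers set these arrays apart, larger muscle differences without them follow from that choice and are a description. Of 11 smooth muscle and pericyte markers 9 were measured, while Cnn1 and Myh11 were not. The mean of the 9 was 8.20 to 8.26 at E14.5, above 7.58 to 7.68 at E11.5 and 7.85 to 8.02 at E16.5. Rgs5 lay under the floor on all arrays of E11.5, and Rgs5 and Tagln on all of E16.5. The summed intensity of the 9 was 11742 in replicate 1 of E15.5 against 5210 and 6434. At E16.5 it was 10065 in replicate 1 against 5172 and 4035. The mean of 13 endothelial markers was 7.38 to 7.49 at E11.5, 9.67 to 9.83 at E14.5 and 10.29 to 10.59 at E16.5, between the ends at E14.5.

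**Figure D1:**
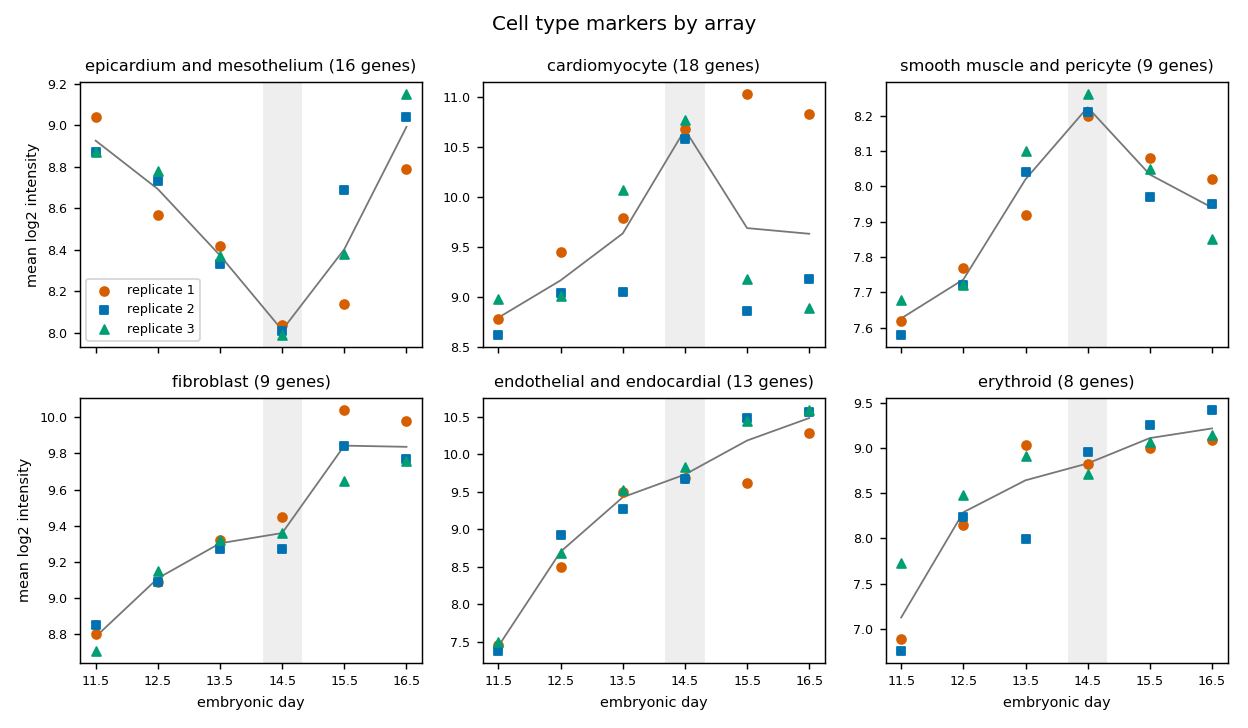
Mean log2 intensity of each marker list (y axes) by embryonic day (x axes), with 1 point per array, marked by replicate number, and a line through the stage means. Epicardial markers were lowest at E14.5 on all 3 arrays (7.99 to 8.04), and cardiomyocyte markers were high on all E14.5 arrays (10.58 to 10.77) and on replicate 1 of E15.5 (11.03) and E16.5 (10.83).

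Peaks and dips were about equally frequent. In limma's fit over all 18 arrays 682 genes (6.30%) were higher and 709 (6.55%) lower at E14.5 than the average of the ends at an adjusted p under 0.05, and of these 577 (5.33%) were peaks and 550 (5.08%) dips. The remaining 105 higher and 159 lower genes had an E14.5 mean between those of the ends. Zfp703, with means of 6.84 at E11.5, 7.38 at E14.5 and 7.38 at E16.5, lay just inside the peaks, and Ttyh2, with means of 6.86, 7.54 and 7.55, lay just outside. Zbtb7a, with means of 7.72 at E11.5, 7.72 at E14.5 and 8.41 at E16.5, lay just inside the dips, and Ttc39c, with means of 7.21, 6.85 and 6.85, lay just outside. Against E11.5 alone 11.6% of genes were higher and 12.1% lower at E14.5, and against E16.5 alone 7.84% and 9.87%. A stricter set was called against both, 208 peaks (1.92% of genes) and 167 dips (1.54%). Their median log2 difference to the nearer end was 0.42 for peaks and -0.45 for dips, and 27 peaks and 15 dips differed from the nearer end by at least 2-fold. The E14.5 arrays did not overlap the end arrays for 206 of the 208 and for all 167, which the choice of these genes largely fixes (E14.5 lay wholly above for 6.26% and wholly below for 5.41% of all genes). For 154 of the 208 strict peaks E14.5 had the highest mean of all 6 stages, and for 148 of the 167 strict dips it had the lowest. Leaving out replicate 1, 2 or 3 of E14.5 left 133, 111 and 109 strict peaks and 88, 93 and 88 strict dips. Without E16.5 replicate 2 the counts were 111 and 106, without E16.5 replicate 3 they were 105 and 96, and without replicate 1 of E15.5 and E16.5 together they were 462 and 262. The counts of all peaks and dips without an E14.5 array were 341 and 319, 292 and 333, and 264 and 312.

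**Figure D2:**
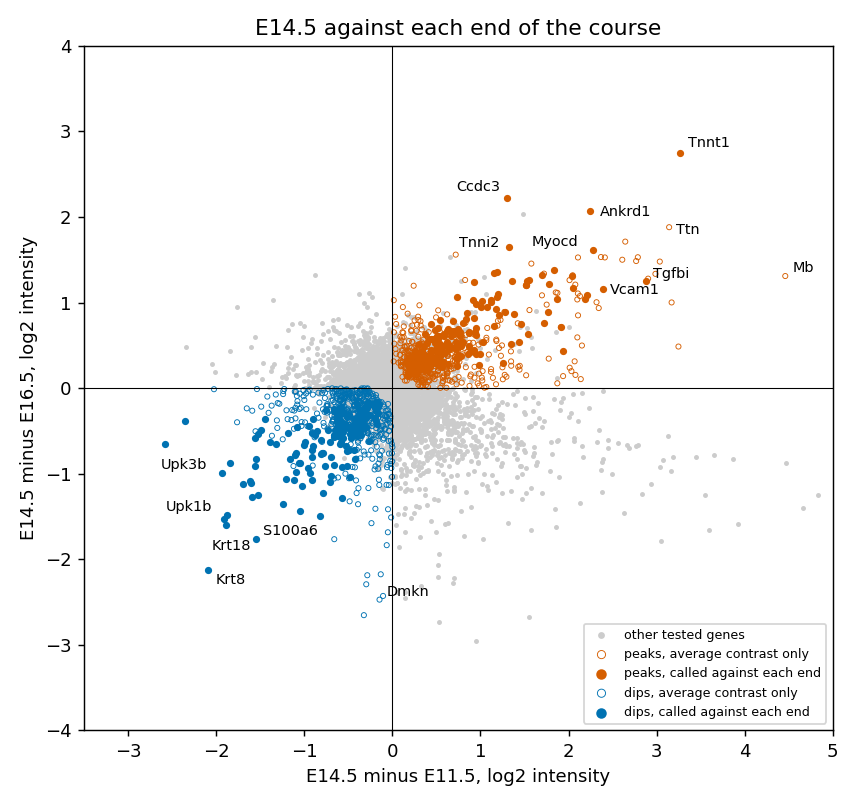
Log2 difference of E14.5 to E11.5 (x axis) and to E16.5 (y axis) for each of the 10829 tested genes. Filled orange points are the 208 peaks and filled blue points the 167 dips called against each end, open points were called against the average alone, and grey points are all other genes. Tnnt1 lies farthest into the corner of peaks and Krt8 farthest into that of dips.

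Genes of the mesothelial sheet were among the deepest dips. Krt8 and Krt18 encode the keratin pair of simple epithelia. Krt8 measured 9.83, 9.52 and 9.71 at E11.5, 7.65, 7.58 and 7.55 at E14.5, and 9.52, 10.02 and 9.61 at E16.5. All 3 arrays of E14.5 were below all 6 arrays of the ends, with log2 differences of -2.09 ± 0.24 (SE) to E11.5 (adjusted p = 1.8e-05) and -2.12 ± 0.24 to E16.5 (adjusted p = 8.6e-05), which is 4.26-fold and 4.35-fold lower. Krt18 measured 9.42, 9.29 and 9.52 at E11.5, 7.58, 7.56 and 7.43 at E14.5 and 8.83, 9.47 and 9.07 at E16.5. It was 3.70-fold and 3.03-fold lower at E14.5, again with no overlap (adjusted p = 1.2e-05 and 0.0002). Krt7, another simple-epithelial keratin, was 2.89-fold lower than at E11.5 and 2.37-fold lower than at E16.5, with 8.27, 8.34 and 8.35 on the E14.5 arrays. Krt19 measured 7.51, 7.66 and 7.52 at E14.5, below every array of the ends, which began at 8.23.

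The uroplakins, membrane plaque proteins of urothelium that mesothelium also expresses, dipped as well. Upk1b measured 10.90, 10.71 and 10.45 at E11.5, 8.97, 8.76 and 8.70 at E14.5 and 10.12, 10.19 and 10.55 at E16.5, and was 3.67-fold and 2.79-fold lower at E14.5 (adjusted p = 1e-05 and 0.00031). Upk3b was at 12.63 to 12.79 on the E11.5 arrays, 10.66 to 10.85 on those of E14.5 and 11.42 to 11.92 on those of E16.5. Hpgd, which degrades prostaglandins, was 3.76-fold lower than at E11.5 and 2.90-fold lower than at E16.5. S100a6, a calcium-binding protein, measured 8.49, 8.34 and 8.46 at E14.5 against 9.87 to 10.33 on the arrays of the ends. It was 3.40-fold lower than at E16.5 and also differed from E15.5, by -1.21 on the log2 scale (adjusted p = 0.012). Aldh1a2, the enzyme that makes retinoic acid in the epicardium, was at 7.05 to 7.15 on the E14.5 arrays, 7.97 to 8.01 on those of E11.5 and 7.49 to 7.81 on those of E16.5 (adjusted p = 0.00032 and 0.015). Its call against each end was lost without E14.5 replicate 3 or E16.5 replicate 3, and its highest adjusted p ranged from 0.00011 to 0.071 over 20 alternatives.

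Of 25 measured genes of epicardial and mesothelial identity 12 were dips and 9 were dips against each end, where 5.08% and 1.54% of all genes were, with a median log2 difference of -0.72 to the average of the ends, where the median over all genes was 0. The 9 were Krt8, Krt18, Krt7, Krt19, Upk1b, Upk3b, Lrrn4, Hpgd and Aldh1a2. The transcription factor genes Tbx18 and Tcf21 were not called, at -0.38 and -0.29 against the average of the ends. Tbx20, a T-box factor gene that the myocardium also expresses, was the only peak of the list, at 8.58, 8.77 and 8.37 on the E14.5 arrays against 7.25 to 7.94 on those of the ends. The dips in the list numbered 11 or 12 when any of the 9 arrays was left out. Those against each end numbered 6 to 9, with the lowest count without E14.5 replicate 3. The low values of this list went with the high cardiomyocyte marker levels of the E14.5 arrays, and the part of those cells in the dip was not tested. On replicate 1 of E16.5, where cardiomyocyte markers stood at 10.83, Krt8 was at 9.52 and Upk1b at 10.12, the lowest of E16.5 but above every E14.5 array. On replicate 1 of E15.5, where they stood at 11.03, Krt8 was at 7.65 and Krt18 at 7.46, as low as at E14.5, against 8.99 and 8.14 for Krt8 and 8.57 and 7.97 for Krt18 on replicates 2 and 3. Upk1b was at 9.30 there, against 9.79 and 9.45.

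**Figure D3:**
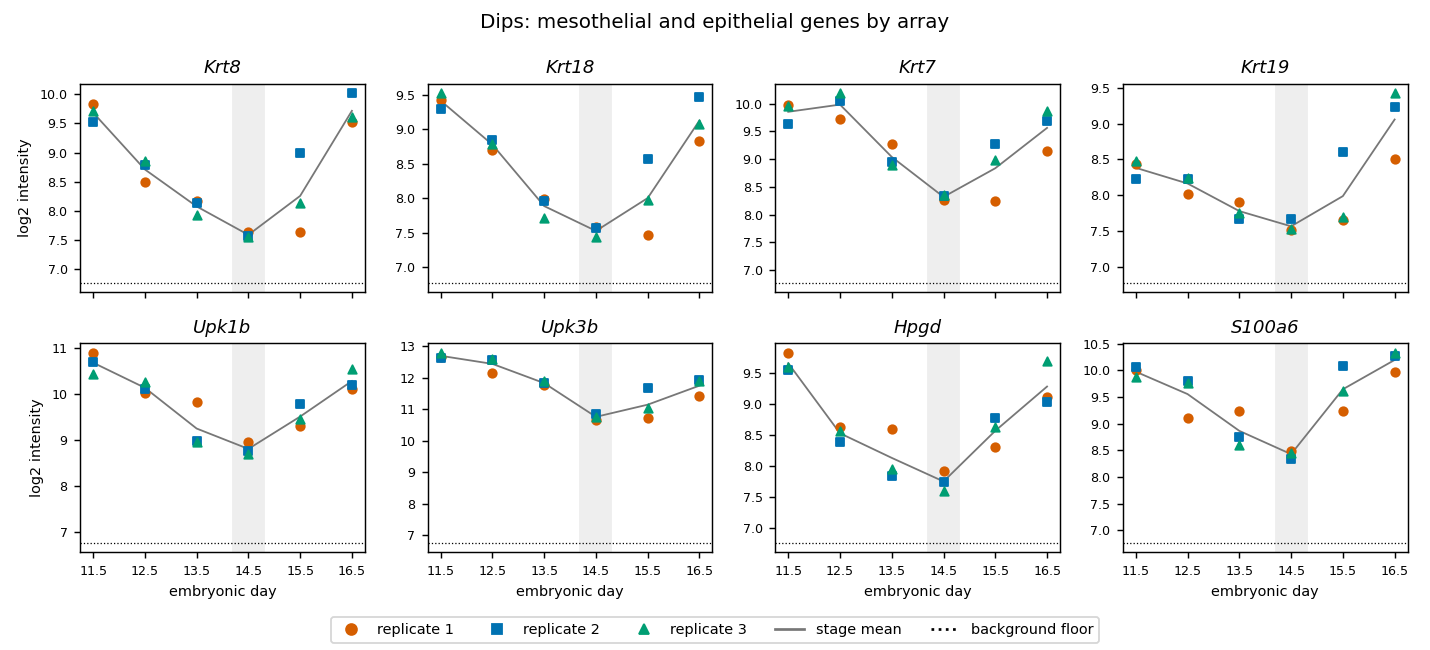
Log2 intensity (y axes) of 8 dips by embryonic day (x axes), with 1 point per array, the stage mean as a line, the background floor dotted and E14.5 shaded. The 3 arrays of E14.5 lie below all 6 arrays of E11.5 and E16.5 in each panel, as for Krt8 with 7.55 to 7.65 against 9.52 to 10.02.

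Further strict dips were of varied function. Ildr2, a tricellular junction protein, was 3.07-fold lower than at E11.5 and 2.12-fold lower than at E16.5. Smpd3, a neutral sphingomyelinase, was 3.25-fold and 2.17-fold lower, and Cyp2s1, a cytochrome P450 of epithelia, 3.03-fold and 2.41-fold lower. Car13, a carbonic anhydrase, was 3.06-fold and 2.16-fold lower, and its call against each end was lost without E16.5 replicate 3 (highest adjusted p from 4e-05 to 0.055 over 20 alternatives). The phosphodiesterase gene Enpp6 lost its call there too (5.1e-05 to 0.051). Ly6e, a surface protein, was 2.37-fold and 2.55-fold lower. Cldn3, which encodes a tight junction claudin, lay near the floor at 6.83, 6.92 and 6.83 on the E14.5 arrays and at 7.18 to 7.65 on those of the ends. Among epithelial junction genes 2 of 16 were dips, Cldn3 and Cdh3, where 5.08% of all genes were. Cdh3 was not called against E16.5 (adjusted p = 0.57), and the median of the list was -0.03.

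Muscle genes were among the highest peaks. Tnnt1, the slow skeletal troponin T, measured 9.25, 9.15 and 9.45 at E11.5, 12.48, 12.38 and 12.80 at E14.5, and 10.60, 9.61 and 9.20 at E16.5. Every E14.5 array lay above every array of the ends, 9.65-fold higher than E11.5 on the average of log2 values (3.27 ± 0.51 SE, adjusted p = 0.00027) and 6.74-fold higher than E16.5 (2.75 ± 0.51, adjusted p = 0.0022). Myocd, the coactivator of serum response factor that drives cardiac and smooth muscle genes, measured 7.64, 7.42 and 7.63 at E11.5, 9.75, 9.72 and 10.04 at E14.5, and 9.38, 7.65 and 7.62 at E16.5. Replicate 1 of E16.5 came near the E14.5 arrays and the other end arrays were lower by more than 2 log2 units, which gave 4.83-fold against E11.5 (adjusted p = 0.0058) and 3.07-fold against E16.5 (adjusted p = 0.048). Ankrd1, a stress-responsive cofactor of heart muscle, measured 8.88, 8.82 and 9.77 at E11.5, 11.45, 11.32 and 11.44 at E14.5 and 10.72, 9.13 and 8.13 at E16.5. It was 4.75-fold and 4.22-fold higher at E14.5, with adjusted p = 0.026 and 0.048.

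Other peaks called against each end included contractile and filament genes. Acta2, smooth muscle actin, which immature cardiomyocytes also express, measured 11.50, 11.22 and 11.56 at E11.5, 13.20, 13.29 and 13.30 at E14.5, and 13.02, 11.62 and 11.03 at E16.5. It was 3.57-fold higher than at E11.5 and 2.60-fold higher than at E16.5 (adjusted p = 0.0061 and 0.04). Desmin (Des), the muscle intermediate filament, was 2.94-fold and 2.40-fold higher, tropomodulin 1 (Tmod1), which caps thin filaments, 3.25-fold and 2.51-fold, and fast troponin I (Tnni2) 2.51-fold and 3.15-fold. Tnni2 was at 8.86, 9.08 and 8.86 on the E14.5 arrays, and no end array exceeded 7.63. Without replicate 1 of E15.5 and E16.5 the difference to the nearer end was 3.15 for Tnnt1, 2.20 for Myocd, 2.77 for Ankrd1, 1.94 for Acta2 and 1.73 for Des. The highest of the adjusted p over the 3 contrasts ranged over all 20 alternatives from 1e-06 to 0.014 for Tnnt1, from 1.9e-05 to 0.18 for Myocd and from 0.00063 to 0.22 for Ankrd1. For Acta2 it ranged from 3.5e-05 to 0.19 and for Des from 4.2e-06 to 0.18. Calls against each end were lost for Myocd, Ankrd1, Acta2, Des, Tmod1 and Ppp1r1a when any array of the 9 other than E16.5 replicate 1 was left out, while Tnnt1 and Tnni2 kept theirs in all 20 alternatives.

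The largest peaks not called against each end were sarcomere and oxygen-storage genes. Myoglobin (Mb) measured 7.16, 6.95 and 7.20 at E11.5, 11.77, 11.35 and 11.57 at E14.5 and 11.90, 9.73 and 9.13 at E16.5. It exceeded E11.5 by 4.46 ± 0.68 (SE, adjusted p = 0.00023), the largest rise of the named genes over that stage, but replicate 1 of E16.5 lay above all E14.5 arrays (adjusted p = 0.21 against E16.5, 0.0051 against the average). Titin (Ttn) measured 8.29, 8.05 and 8.71 at E11.5, 11.45, 11.51 and 11.51 at E14.5 and 11.29, 9 and 8.54 at E16.5. Actn2, the Z-disc actinin, had 12.25 to 12.35 on the E14.5 arrays and 12.45, 10.26 and 9.74 on those of E16.5. Without replicate 1 of E15.5 and E16.5, E14.5 exceeded the nearer end by 2.13 for Mb, 2.72 for Ttn and 2.30 for Actn2. Larger differences follow from leaving out arrays with high cardiomyocyte markers.

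**Figure D4:**
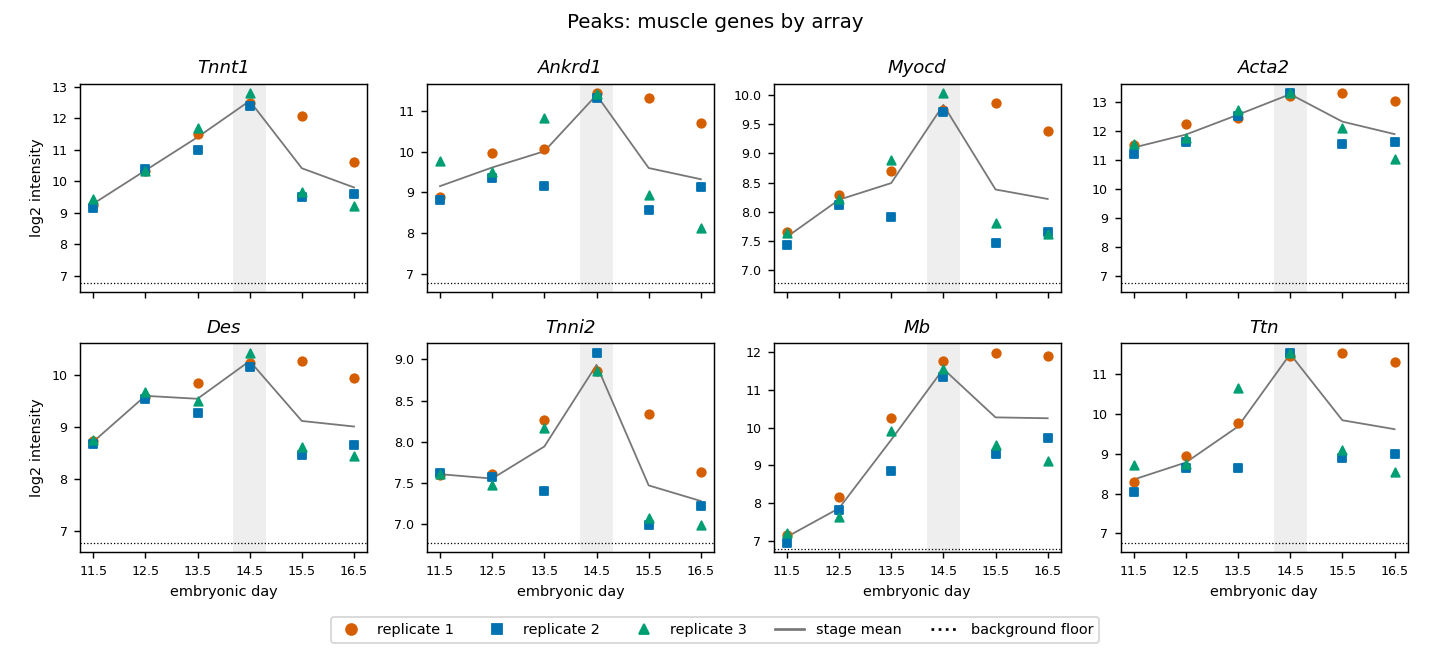
Log2 intensity (y axes) of 8 muscle genes by embryonic day (x axes), with 1 point per array, the stage mean as a line, the background floor dotted and E14.5 shaded. The 3 arrays of E14.5 are close together, as for Ttn with 11.45 to 11.51, while replicate 1 of E15.5 and E16.5 (circles) lies well above replicates 2 and 3.

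Of 24 measured cardiomyocyte genes 13 were peaks, against 5.33% of all genes, with a median log2 difference of 1.52 to the average of the ends, 2.07 to E11.5 and 0.96 to E16.5. In limma's fit 0 of the 24 were called against each end, where 9 met an unadjusted p under 0.05 in each contrast. The peaks included Myh7, the slow myosin heavy chain, at 9.36 to 9.56 on the E14.5 arrays, and Csrp3, a Z-disc protein, at 11.70 to 11.94. Without replicate 1 of E16.5 there were 20 peaks, 13 of them against each end, and without replicate 1 of E15.5 and E16.5 there were 23 and 22. These arrays were set apart by their cardiomyocyte markers, so the gains follow from that choice. Without replicate 1, 2 or 3 of E14.5 the peaks fell to 4, 3 and 2, and without replicate 2 or 3 of E16.5 to 8 and 8. The smooth muscle and pericyte list had 7 peaks and 1 dip among 13 measured genes, where 5.33% and 5.08% of all genes were. Of the peaks 6, Acta2, Myocd, Des, Pdgfrb, Rgs5 and Cspg4, were called against each end, as were 1.92% of all genes. Rgs5 lay under the floor on all arrays of E11.5, E12.5 and E16.5. It passed the filter only through the other stages, so its call against each end is a call against background. Without E14.5 replicate 3 it had 2 peaks, and strict peaks numbered 2 or 3 without any array of the 9 other than E16.5 replicate 1. Pdgfrb, the pericyte receptor for platelet-derived growth factor, was at 7.80, 7.76 and 7.67 at E14.5 against 6.91 to 7.25 on the end arrays, and replicate 1 of E16.5, at 7, was near the other E16.5 arrays. The dip was Mylk, a myosin light chain kinase, at 8.74, 8.89 and 8.65 on the E14.5 arrays.

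Promoters are shown for 5 muscle peaks, picked by hand from the peaks with a CArG box after their motifs were seen. Of the 5, Ldb3 alone was called against each end. The CArG box is bound by serum response factor, through which myocardin acts, and a part of either in these peaks was not tested. The search took the first listed start of each gene, from 250 bases before to 50 after, from RefSeq sequence of build GRCm38.p6. Each line gives the last 150 bases before the start, 5′ to 3′ on the gene's strand, with the CArG box in capitals.
Actc1: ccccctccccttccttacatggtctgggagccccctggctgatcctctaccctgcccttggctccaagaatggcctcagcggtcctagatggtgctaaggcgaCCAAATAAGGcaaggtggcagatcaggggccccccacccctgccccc
Acta1: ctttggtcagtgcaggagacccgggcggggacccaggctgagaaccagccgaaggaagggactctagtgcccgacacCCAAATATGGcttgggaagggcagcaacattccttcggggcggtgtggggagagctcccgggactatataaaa
Myl3: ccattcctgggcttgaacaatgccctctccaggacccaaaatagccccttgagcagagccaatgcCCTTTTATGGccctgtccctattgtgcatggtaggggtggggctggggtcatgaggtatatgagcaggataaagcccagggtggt
Hopx: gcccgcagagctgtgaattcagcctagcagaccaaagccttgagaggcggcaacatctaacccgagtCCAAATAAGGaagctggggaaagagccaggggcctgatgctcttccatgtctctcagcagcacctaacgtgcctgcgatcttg
Ldb3: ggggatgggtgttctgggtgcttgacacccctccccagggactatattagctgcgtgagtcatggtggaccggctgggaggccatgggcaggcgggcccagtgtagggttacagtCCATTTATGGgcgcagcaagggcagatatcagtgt
The stretches are chr2:114052876-114053025 (cardiac alpha-actin, minus strand), chr8:123894776-123894925 (skeletal alpha-actin, minus strand), chr9:110763528-110763677 (ventricular essential light chain, plus strand), chr5:77115124-77115273 (a homeodomain-only cofactor, minus strand) and chr14:34588682-34588831 (a Z-disc LIM protein, minus strand). The boxes begin at -47 in Actc1, -73 in Acta1, -85 in Myl3, -83 in Hopx and -35 in Ldb3, counted from the start. Actc1 and Hopx share the letters CCAAATAAGG. Actc1 measured 10.54, 10.09 and 10.85 at E11.5, 13.06, 13.04 and 13.22 at E14.5 and 13.11, 11.04 and 10.67 at E16.5, and Ldb3 measured 7.66, 7.60 and 7.83 at E14.5 against 6.77 to 7.38 on the end arrays.

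The CArG box, searched on both strands, occurred in 1.57% of 27025 promoters and in 1.49% of the 8751 among tested genes. It occurred in 19 of 450 peaks with a listed promoter (4.22%) and in 2 of 437 dips (0.458%). Beside those shown, the 19 were Asb2, Creld1, D830030K20Rik, Dnm3os, Fhl1, Fhl2, Hdgfl2, Inafm2, Ints6l, Ldha, Lmcd1, Myom1, Nr2f6 and Zfp871. Among peaks called against each end it occurred in 6 of 162 (3.7%). A second muscle motif, the MEF2 box, occurred in 3.33% of the peaks, 1.14% of the dips and 1.73% of tested genes. The letters CATTCC, the core of the motif that TEAD factors bind, occurred in 16.2% of the peaks, 16.7% of the dips and 12.4% of tested genes. TATAAA occurred in 10.2%, 7.55% and 7.78%. The CArG and MEF2 boxes were searched by their usual consensus with any A or T in the middle and overlap with other motifs was allowed. A match is a description of letters in these windows and not evidence of a binding site.

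Another set of peaks had already risen by E12.5 or E13.5, was still high at E14.5 and fell to E16.5. For Tgfbi, Ccdc3 and P2ry14 the SD of the replicates at E16.5 was 0.14, 0.13 and 0.06. At E15.5 it was 0.07, 0.53 and 0.26. Tgfbi, a matrix protein induced by transforming growth factor beta, measured 7.93, 7.63 and 7.87 at E11.5, 10.69, 10.86 and 10.50 at E14.5 and 9.57, 9.44 and 9.29 at E16.5. It was 7.34-fold and 2.38-fold higher at E14.5 with no overlap (adjusted p = 4.5e-09 and 6e-05), and its mean was highest at E13.5. Ccdc3, a secreted protein, measured 9.28, 8.84 and 9.48 at E11.5, 10.58, 10.55 and 10.37 at E14.5 and 8.41, 8.28 and 8.15 at E16.5. It stood highest at E12.5, with 10.71 to 11.01, and fell from E14.5 to E15.5 by 1.29 (adjusted p = 0.0074). P2ry14, a receptor for UDP-sugars, was 2.89-fold and 2.39-fold higher at E14.5 than at the ends, from 8.20 to 8.48 against 6.77 to 7.13. Its adjusted p was 3.5e-07 against E11.5 and 2.7e-05 against E16.5. All 3 genes kept their calls against each end in all 20 alternatives.

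Adhesion and guidance genes were represented on both sides. Vcam1, an integrin ligand, measured 8.06, 7.96 and 8.31 at E11.5, 10.45, 10.58 and 10.47 at E14.5 and 9.59, 9.13 and 9.30 at E16.5. E14.5 did not overlap the ends, with differences of 2.39 ± 0.21 (SE) and 1.16 ± 0.21 (adjusted p = 1.2e-06 and 0.0019). Ncam1, the neural cell adhesion molecule, was higher than at the ends by 0.81 and 0.76, a call lost without any E14.5 array, E11.5 replicate 2, or E16.5 replicate 2 or 3 (highest adjusted p from 0.00093 to 0.11 over 20 alternatives). Of the secreted repellents, Slit2 was a peak and Slit3 a dip. Slit3 measured 8.43, 8.32 and 8.38 at E11.5, 7.90, 7.67 and 7.54 at E14.5 and 8.49, 8.53 and 8.80 at E16.5, below every other array of the 9. It was also lower at E14.5 than at E13.5 and E15.5 (adjusted p = 0.011 and 0.032). Of 33 genes of guidance and adhesion 7 were peaks and 3 dips (5.33% and 5.08% of all genes were), with a median log2 difference of 0.01. Without E14.5 replicate 1 there were 3 peaks, and the dips numbered 1 without any of the E14.5 arrays, E11.5 replicate 3 or E16.5 replicate 3.

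**Figure D5:**
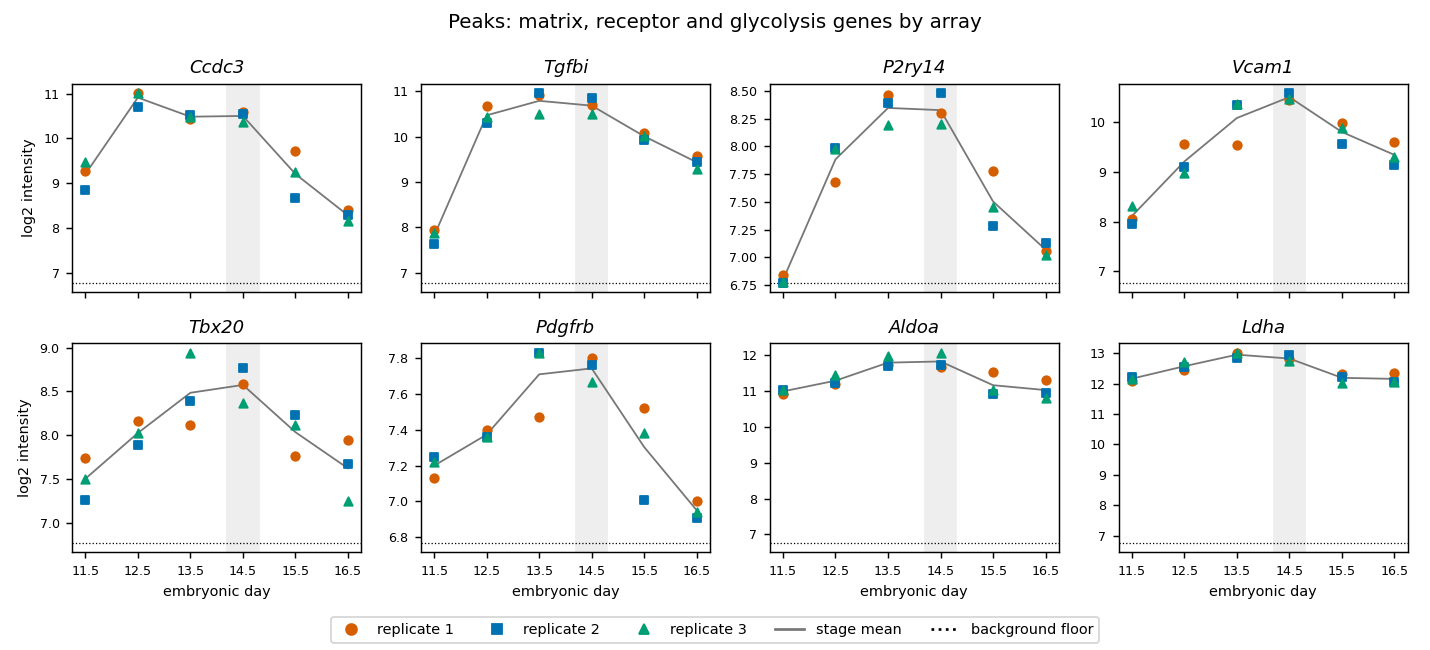
Log2 intensity (y axes) of 8 further peaks by embryonic day (x axes), with 1 point per array, the stage mean as a line, the background floor dotted and E14.5 shaded. Ccdc3 is highest at E12.5 (10.71 to 11.01), Tgfbi and P2ry14 have their highest means at E13.5, and Vcam1 crests at E14.5 (10.45 to 10.58).

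Of 22 genes of epithelial-mesenchymal transition 4 were peaks (5.33% of all genes were), 3 of them against each end, namely Tgfbi, the homeobox gene Prrx1 and the hyaluronan synthase gene Has2. Prrx1 was at 7.42, 7.47 and 7.69 on the E14.5 arrays against 6.70 to 6.86 at E11.5 and 7.23 to 7.30 at E16.5. Its adjusted p against E16.5 was 0.047, and the call against each end was lost in 14 of 20 alternatives (0.017 to 0.21), as that of Has2 was in 10 (0.0044 to 0.15). The list had 1 or 2 strict peaks when any of the 9 arrays was left out. Inhba, which encodes activin A, was at 7.92, 8.03 and 8.06 at E14.5 against 7.25 to 7.46 at E11.5 and 7.16 to 7.51 at E16.5 (adjusted p = 0.0012 and 0.0013). Inhba and Tgfbi were the 2 peaks among 17 genes of TGF-beta signalling (5.33% of all genes were peaks). Heyl, a Notch target, was at 7.27, 7.22 and 7.11 at E14.5 and lay under the floor on all 3 arrays of E11.5, so that E14.5 was at least 1.35-fold higher (adjusted p = 1.5e-05). Ccl2, a chemokine, was at 7.45, 7.33 and 7.52 at E14.5 against 6.75 to 6.87 on the end arrays. The end arrays were near background for Ccl2, with 1 of E11.5 and 2 of E16.5 above the floor. Plvap, of fenestrated endothelium and endocardium, was at 8.25 to 8.57 at E14.5, 6.79 to 6.87 at E11.5 and 7.60 to 7.91 at E16.5. It was 1 of 2 peaks among 22 endothelial genes (5.33% of all genes were peaks). The median log2 difference of these 22 was 1.56 to E11.5 and -0.73 to E16.5.

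The dips also held secreted signals. Igfbp5, a binding protein of insulin-like growth factors, measured 12.68 to 12.73 at E11.5, 11.72 to 11.83 at E14.5 and 12.46 to 13.18 at E16.5, with no overlap (adjusted p = 0.0017 and 0.0022). Of 14 genes of FGF signalling 2 ligands were dips, Fgf1 and Fgf18 (5.08% of all genes were). Fgf1 was at 6.81 to 6.85 and Fgf18 at 6.73 to 6.79 on the E14.5 arrays. These levels are close to the floor of 6.77, so their differences are compressed. Fgf18 lost its call against each end without any E14.5 array, without E16.5 replicate 2 or 3, and in the fit of only the 9 arrays of E11.5, E14.5 and E16.5 (highest adjusted p from 0.0045 to 0.14 over 20 alternatives). Of 27 Wnt genes 3 were dips, Wnt5a, Wnt4 and Wnt2 (5.08% of all genes were), with a median of -0.07, and none was called against each end in limma's fit, where 1 met an unadjusted p under 0.05 in each contrast. Without E16.5 replicate 1 the list had 5 dips. Wnt4 and Wnt2 lay under the floor on all E14.5 arrays. Wnt4 differed from E11.5 by only -0.09 (adjusted p = 0.33) and Wnt2 from E16.5 by -0.08 (adjusted p = 0.62). Both are dips by the definition, but each was near background at that end too. Wnt5a, a ligand of planar polarity, measured 8.43, 8.52 and 8.29 at E14.5, 9.25 to 9.50 at E11.5 and 8.41 to 9.33 at E16.5, and overlapped E16.5. The angiopoietin receptor gene Tek, also known as an endothelial gene, dipped from 10.05 to 10.15 at E11.5 to 9.46 to 9.66 at E14.5, with 10.04 to 10.4 at E16.5 (adjusted p = 0.0095 and 0.0031). Tek was the only dip among 22 endothelial genes, whose median log2 difference was 1.56 to E11.5 and -0.73 to E16.5. The endothelial markers Cdh5, Pecam1 and Tie1 lay under the floor on all arrays of E11.5, where Tek did not. Fmod, a collagen-binding proteoglycan, was at 7.40, 7.42 and 7.53 at E14.5 against 8 to 8.75 on the end arrays, and Loxl1, a crosslinker of elastin, was at 11.54 to 11.67 against 11.86 to 12.48. Fmod kept its calls in all 20 alternatives, and Loxl1 lost a call in 9 (highest adjusted p from 0.0013 to 0.19).

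Glycolytic and respiratory genes were among the peaks and none was a dip. Of 25 measured genes of glycolysis and hypoxia 9 were peaks, against 5.33% of all genes. Aldoa, Ldha, Pfkl and Pdk1 were called against each end, where 1.92% of all genes were such peaks. Ldha, lactate dehydrogenase A, measured 12.09, 12.23 and 12.16 at E11.5, 12.80, 12.93 and 12.74 at E14.5 and 12.35, 12.06 and 12.05 at E16.5. E14.5 lay above both ends by 0.67 ± 0.10 (SE, adjusted p = 0.00016 and 0.00046), with no overlap. The aldolase gene Aldoa was higher by 0.83 and 0.80, at 11.68, 11.74 and 12.07 on the E14.5 arrays. Vegfa, Car9 and Adm of the same list, chosen after their values were seen, were not called. They were at -0.30, -0.33 and 0.04 against the average of the ends. The 9 peaks of the list went the other way, so these 3 do not stand for it. Of 24 genes of oxidative phosphorylation 8 were peaks, against 5.33% of all genes, with a median log2 difference of 0.42. In limma's fit 0 were called against each end, where 5 met an unadjusted p under 0.05 in each contrast. Cycs, cytochrome c, measured 9.94 to 10.05 at E11.5, 11.14, 11.17 and 11.43 at E14.5 and 11.17, 10.66 and 10.42 at E16.5. Without replicate 1 of E15.5 and E16.5, set apart by their cardiomyocyte markers, there were 17 respiratory peaks, 15 against each end. The glycolytic ones then numbered 11, 10 against each end. Without E16.5 replicate 1 alone the respiratory peaks numbered 12, 6 of them against each end, and the glycolytic ones 11, 8 of them against each end. Without an E14.5 array the respiratory peaks numbered 1, 0 and 0, and without any of the others, E16.5 replicate 1 apart, 2 to 5. Without E14.5 replicate 3 the strict glycolytic peaks numbered 2. The cardiomyocyte markers moved with these genes, and their part was not tested.

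Among cell cycle genes Cdc20 was called against each end. Cdc20, the activator of the anaphase-promoting complex, measured 10.14, 9.95 and 9.91 at E11.5, 10.41, 10.40 and 10.63 at E14.5 and 9.97, 9.78 and 9.63 at E16.5. It was higher at E14.5 than at E11.5 by 0.48 and than at E16.5 by 0.68, and higher than at E13.5 and E15.5 by 0.49 and 0.47 (adjusted p = 0.011 and 0.016). It was 1 of 3 peaks among 24 genes of G2 and mitosis, where 5.33% of all genes were peaks. The median log2 difference of that list was 0.20. The list had 6 peaks without E11.5 replicate 2 and 7 without E16.5 replicate 1. Rrm2, a subunit of ribonucleotide reductase, was at 8.61, 8.79 and 8.95 at E14.5 against 8.09 to 8.50 on the end arrays, and was called against the average but not against E11.5 (adjusted p = 0.055). Among genes of DNA replication 2 of 28 were peaks, Rrm2 and Cdc45, a share near the 5.33% of all genes. That list had 0 without E14.5 replicate 2 or 3, and 1 without E11.5 replicate 1 or 3, E14.5 replicate 1, or E16.5 replicate 1 or 3. Cdkn1c, a cell cycle inhibitor, and Ccnd3, a cyclin of G1, were the 2 dips of a list of 14 (5.08% of all genes were dips). They were at -0.31 and -0.28 against E16.5 (adjusted p = 0.081 and 0.087). Neither was a dip without E14.5 replicate 1 or 2, and 1 of them was without E14.5 replicate 3 or E16.5 replicate 2.

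A further kind of dip was low from E11.5 to E14.5 and rose afterwards. Gbp2, an interferon-induced GTPase, measured 7.49, 7.62 and 7.49 at E11.5, 7.15, 7.14 and 7.33 at E14.5 and 9.28, 9.86 and 10.44 at E16.5. It differed from E16.5 by -2.65 ± 0.33 (SE, adjusted p = 0.00016) and from E11.5 by -0.32 (adjusted p = 0.55). Krt14, a keratin of stratified epithelia, measured 7.68, 7.57 and 7.85 at E14.5 and 9.59, 10 and 10.4 at E16.5, and Dmkn, a secreted epithelial protein, 6.77, 6.78 and 6.81 and then 8.64, 9.58 and 9.57. Dmkn was thus close to the floor of 6.77 at E14.5. It lay under the floor on all arrays of E12.5 and E13.5, and its lowest mean was at E12.5. Klf4, an immediate early transcription factor gene, measured 7.39, 7.19 and 7.19 at E14.5, within the range of 7.16 to 7.62 at E11.5, and 8.76 to 9.06 at E16.5. These genes are dips by the definition, but they differ from E16.5 much more than from E11.5.

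Few genes differed between E14.5 and its neighbours too. Against E13.5, 1.87% of all genes were higher and 2.70% lower, and against E15.5, 1.04% and 1.50%. Of the 208 strict peaks 7 were higher than both E13.5 and E15.5, as were 0.111% of all genes, and of the 167 strict dips 5 were lower than both, as were 0.0923%. These contrasts share the E14.5 arrays with those that chose the genes, so nothing is read from the difference in share. The peaks were Cdc20, Heyl, Gadd45gip1, Irx2, Palm2, Stk38l and Ttc17. The dips were Slit3, Cst3, Hyi, Phf13 and Rcn3, all named here after their values were seen apart from Cdc20, Heyl, Slit3 and Cst3. Cst3, which encodes the protease inhibitor cystatin C, measured 10.69, 10.58 and 10.58 at E14.5 and differed by -0.35 from E11.5, -0.34 from E16.5, -0.43 from E13.5 and -0.35 from E15.5. Krt8 and Tnnt1, with much larger differences to the ends, did not pass the test against E13.5 (adjusted p = 0.25 and 0.19).

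The stage means of E12.5, E13.5 and E15.5 did not enter the contrasts that chose the peaks and dips, but their arrays entered the estimate of the spread and the filter on dim probes, so the shares that follow are a description. The average of E13.5 and E15.5 exceeded E12.5 for 74 of the 577 peaks (12.8%), against 6.80% of all genes, and was lower for 46. It lay below E12.5 for 136 of the 550 dips (24.7%), against 9.16% of all genes, and above it for 10. The median log2 difference was 0.08 over the peaks, -0.10 over the dips and -0.005 over all genes. In this contrast Krt18 was at -0.83 (adjusted p = 0.0059), Upk1b at -0.76 (adjusted p = 0.0095) and Krt7 at -1.05 (adjusted p = 0.0025), while Krt8 missed the threshold (adjusted p = 0.092). Of the muscle peaks Mb was higher by 2.12 (adjusted p = 0.024), and Tnnt1 differed by 0.56 (adjusted p = 0.45). Ccdc3, which was highest at E12.5, was at -1.06 (adjusted p = 0.0012).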

How the data were processed

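Per the labels' protocols, biotinylated cRNA from 200 ng of total RNA was hybridised to Illumina arrays, and the submitters' processing notes name GenomeStudio 2011.1. The deposited values are intensities on a linear scale. Their sorted columns differed by at most 2.04 units, so they had been quantile normalized; the sources used here give no other step. A second table, of 18 signal and 18 detection p columns, was not used because its column names match no label. Groups came from the array titles.

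Log2 of the deposited intensities was analysed. The background peak lay at 99.2 units with an SD of 0.06 (log2), and a tail of 0.01 set the floor at 109 units. Of 45281 probes 20001 exceeded it on at least 3 arrays, and 3072 of these lacked a unique symbol. The brightest probe stood for each of 10829 genes, of which 4173 had several. Of 34885 probes with a unique symbol 34807 matched RefSeq. limma 3.58.1 in R 4.3.3 fitted 1 mean per stage to all 18 arrays (12 residual degrees of freedom), and p-values were adjusted by Benjamini-Hochberg over all genes at a threshold of 0.05. Named genes were the 12 peaks and 12 dips farthest from the nearer end (called against each end, no overlap, higher side above the floor), up to 3 peaks and 3 dips of each gene list with at least 5 measured genes, and the 3 largest of each kind not called against each end. The promoter examples were chosen after their motifs were seen. For 11 of 49 named genes with other kept probes, a further probe lay on the other side of an end: Axl, Ccnd3, Cdc25c, Cdh3, Nrp1, Oasl2, Polr1a, Rarb, Srsf5, Tnc and Wnt4. The members and lists were chosen with earlier results of these data known. The fit was tested on simulated data. Alternatives covered normalization, background, filter, probes, moderation, weights, samples, the replicate number as a block and leaving out arrays. Wt1 was not analysed here.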

Additional observations from a re-analysis of the deposited data

How the results depend on the processing

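With each of the 9 arrays left out in turn, peaks numbered 264 to 673, dips 312 to 685, strict peaks (against each end) 105 to 283 and strict dips 88 to 202. For the average of E13.5 and E15.5 against E12.5, peaks called higher numbered 52 to 89 and dips called lower 91 to 172. Fitting only the 9 arrays gave 876 peaks and 397 strict peaks. Array weights gave 1265 peaks, 1155 dips, 614 strict peaks, 416 strict dips, and 229 and 350 in the contrast against E12.5. Leaving out replicate 1 of E15.5 and E16.5 gave 845 peaks, 767 dips, 462 strict peaks and 262 strict dips. All counts stayed within 1.5 times under the other floor, no filter, cyclic loess, normexp with either offset, the mean of all probes and trend with robust moderation. The cause of the other shifts was not tested. The replicate block gave 690 peaks, 702 dips, 256 strict peaks and 222 strict dips. Deviations of same-numbered arrays correlated with r of 0.056 to 0.484, and 7 of 9 pairs exceeded 0.1. In 15 of 18 searches, each of 1 array among those of another stage, the best correlation was with the same number. Same-numbered arrays thus tended to deviate together, and the main fit ignores this. What the number marks is not known, so the block is given as an alternative. Among named genes the block ended the call against each end of Timp1 alone.

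The difference to the nearer end reversed sign for genes lying close to that end. Adamts19 went to -0.01 under cyclic loess, -0.03 without E14.5 replicate 2 and -0.08 without E16.5 replicate 3. Oasl2 went to 0.02 under cyclic loess and 0.01 without E11.5 replicate 1. Rarb went to -0.05 with the mean of all probes, -0.03 without E11.5 replicate 2 and -0.03 without E14.5 replicate 2, and Polr1a to -0.04 with the mean of all probes. Without E11.5 replicate 1 Klf4 went to 0.10 and Ier3 to 0.16. Without E14.5 replicate 1 Ier3 and Gbp3 went to 0.01. Lss went to 0.01 without E14.5 replicate 3 or E16.5 replicate 2 and to 0.00049 without E16.5 replicate 3. Psat1 went to 9.6e-05 without E16.5 replicate 1, with or without E15.5 replicate 1. Over the arrays left out in turn Rarb ranged from -0.03 to 0.14, Gbp3 from -0.06 to 0.01, Klf4 from -0.13 to 0.10, Ier3 from -0.17 to 0.16, Psat1 from -0.23 to 9.6e-05 and Lss from -0.02 to 0.01. The cause was not tested. Signal over background limits what can be said of genes near the floor. At E14.5 10 strict dips lay under it on all 3 arrays, and 10 peaks had no array of either end above it, so that they passed the filter through other stages.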

Other observations

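Stress and inflammatory genes not described above also held peaks and dips. Of 19 genes of the integrated stress response 4 were peaks and 3 were peaks against each end, where 5.33% and 1.92% of all genes were. Without E14.5 replicate 3 or E16.5 replicate 3 the list had 1 peak against each end. Mthfd2 and Shmt2, enzymes of mitochondrial folate metabolism, were at 9.58 to 9.67 and 7.64 to 7.72 on the E14.5 arrays, above all end arrays, which reached 9.35 for Mthfd2 and 7.50 for Shmt2. Vldlr, a lipoprotein receptor, was 4.13-fold higher than at E11.5 and 2.48-fold higher than at E16.5, with replicate 1 of E16.5 at 9.15 against 7.99 and 8.08. Vldlr lost its call against each end without E16.5 replicate 2 or 3 (highest adjusted p from 6.4e-06 to 0.055 over 20 alternatives). Mthfd2 lost it in 7 alternatives (0.0052 to 0.16) and Shmt2 without E14.5 replicate 3 or E16.5 replicate 3 (0.0019 to 0.098). The dips of that list were Cebpb and Psat1. Of 20 immediate early genes 2 were dips, Klf4 and Ier3 (5.08% of all genes were), and without E11.5 replicate 1 there were 0. Of 19 interferon genes 3 were dips, Gbp2, Gbp3 and Oasl2 (5.08% of all genes were), and 1 was without E11.5 replicate 1. Oasl2 lay under the floor on all arrays of E11.5 and E14.5 and differed from E11.5 by -0.01 (adjusted p = 0.96). The imprinted gene Cdkn1c was a dip at 13.62 to 13.65 on the E14.5 arrays and 13.77 to 14.08 at E16.5.

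Basement membrane genes had 3 dips of 25, where 5.08% of all genes were dips. These dips numbered 1, 1 and 0 without E14.5 replicate 1, 2 or 3, and 6 without E16.5 replicate 1. Lama5, a laminin chain of epithelia, was at 7.24, 7.41 and 7.31 at E14.5 against 7.68 to 8.26 on the end arrays. Col18a1, the collagen that yields endostatin, was at 11.60 to 11.70 against 12.05 to 12.41. The third dip, Col4a5, overlapped the end arrays (adjusted p = 0.46 against E16.5). In limma's fit 0 of the 25 were called against each end, where 2 met an unadjusted p under 0.05 in each contrast. Lama5 was not called against E16.5 (adjusted p = 0.061) and Col18a1 was not called against E11.5 (adjusted p = 0.065). Tnc, a matrix glycoprotein, was a peak at 9.04 to 9.23, against 6.93 to 7.02 at E11.5 and 8.58 to 8.67 at E16.5. It was not called against E16.5 (adjusted p = 0.099), and 1 of its 4 other probes lay on the other side of an end.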
